A study of Rattus norvegicus with 399 samples.

Results

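Liver and kidney of the same rats were compared in how far they changed under 1,2-dichlorobenzene (1,2-DCB), a benzene ring with chlorine on neighbouring carbons. The measure is a contrast of contrasts. For each probe the log2 change in liver (500 minus 0 ppm) had the log2 change in kidney (500 minus 0 ppm) subtracted from it, and the result is called the difference below. It is positive where liver moved up more, or down less, than kidney. The comparison rests on 29 of the 399 libraries of the series, those of liver (left lobe) and kidney at 0 and 500 ppm that the submitters kept in their own work. They came from 9-week-old female Sprague-Dawley rats and were collected on study day 5, as pieces of about 5 mm3. The groups held 10 control and 5 exposed livers, and 9 control and 5 exposed kidneys, 1 control kidney having been set aside by the submitters for its alignment rate. Both tissues were available from 14 rats, 9 controls and the 5 exposed rats F601 to F605. In the main fit the difference was taken within rats, so it was estimated from these 14. The control liver without a kidney entered the filter, the scaling and the change within liver. The sources used here do not give the route of exposure. Of the 2654 probes of the panel, 1885 passed a filter on low counts in both tissues and were tested.

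The liver oxidises chlorinated benzenes with cytochromes P450, CYP2E1 among them, to reactive epoxides and quinones that are then conjugated with glutathione. The kidney carries some of the same enzymes in its proximal tubule and excretes the conjugates. Electrophiles of this kind release NRF2 (gene Nfe2l2), which binds antioxidant response elements and raises enzymes of glutathione synthesis and conjugation, while damaged proteins release HSF1, which binds heat shock elements in front of chaperone genes.

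The promoters of 3 genes whose difference was among the largest or most precise are shown, since each holds the core of one of these elements. They are RefSeq sequences of build GRCr8, 300 bases each, from 250 bases before to 50 after the gene's start, written 5′ to 3′ on the gene's strand, with matches in capitals on either strand. In Hspb1 (chr12:26432252-26432551, minus strand) the capitals mark the heat shock element core GAANNTTC. In Gstp1 (chr1:210769656-210769955, minus strand) and Gpx2 (chr6:101229984-101230283, minus strand) they mark the antioxidant response element core TGACNNNGC, read on the opposite strand as GCNNNGTCA.
Hspb1: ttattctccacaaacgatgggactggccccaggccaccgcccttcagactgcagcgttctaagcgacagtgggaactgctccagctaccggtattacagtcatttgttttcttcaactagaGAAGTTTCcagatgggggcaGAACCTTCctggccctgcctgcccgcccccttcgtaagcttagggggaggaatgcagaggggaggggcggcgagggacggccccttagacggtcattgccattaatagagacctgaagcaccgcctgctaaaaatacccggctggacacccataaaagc
Gstp1: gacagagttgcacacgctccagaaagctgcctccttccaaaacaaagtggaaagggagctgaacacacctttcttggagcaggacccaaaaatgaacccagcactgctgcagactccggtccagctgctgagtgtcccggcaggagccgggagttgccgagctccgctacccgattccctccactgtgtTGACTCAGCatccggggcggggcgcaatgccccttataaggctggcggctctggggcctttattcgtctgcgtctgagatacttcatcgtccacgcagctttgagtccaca
Gpx2: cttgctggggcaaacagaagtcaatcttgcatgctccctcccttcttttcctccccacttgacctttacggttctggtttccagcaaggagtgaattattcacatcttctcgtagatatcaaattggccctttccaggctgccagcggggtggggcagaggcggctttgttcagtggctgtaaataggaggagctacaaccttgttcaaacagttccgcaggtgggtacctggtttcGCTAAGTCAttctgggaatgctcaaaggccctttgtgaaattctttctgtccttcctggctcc
The antioxidant core occurred in 12.1% of 33469 RefSeq promoters of this length and in 15.2% of the 1467 that belong to tested genes. Of 27 genes on the list of NRF2 targets, 22 had an entry, and 11 of their 25 promoters (44%) held the core. The heat shock core occurred in 8.59% of all promoters and 6.48% of those of tested genes, against 6 of the 9 promoters of listed heat shock genes (66.7%). Such a match describes the letters only and shows no binding.

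Library totals, in units of 1e+06 counts, ran from 32.03 to 66.91 in control liver, 28.31 to 63.59 in exposed liver, 21.54 to 36.09 in control kidney and 22.15 to 41.31 in exposed kidney. Levels are given as normalised CPM, that is, each count was divided by its library's total times a TMM factor and expressed per 1e+06. These factors had a median of 0.3541 in control liver, 0.5645 in exposed liver, 2.625 in control kidney and 2.519 in exposed kidney, so raw CPM and normalised CPM differ. Markers matched the labelled tissues. Slc22a8, a transporter of the proximal tubule, had a median of 41.09 normalised CPM in control kidney and 0 in control liver, and Cps1, the first enzyme of the urea cycle in hepatocytes, 246.2 in control liver and 0.3627 in control kidney. The 3 proximal tubule, 3 distal tubule and collecting duct, and 1 podocyte probes of the panel did not pass the filter in both tissues and were not tested. In pieces of tissue, fewer cells of a type and less RNA per cell cannot be told apart.

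Liver and kidney responded unequally in many probes. The difference was called for 937 of 1885 probes (49.7%) at a Benjamini-Hochberg adjusted p below 0.05 in edgeR's quasi-likelihood test with the rat as a block: 397 were higher in liver (21.1%) and 540 lower (28.6%). It passed 2-fold in 469 of them, 198 higher and 271 lower. In 448 probes (23.8%) the liver minus kidney values of the 5 exposed rats did not overlap those of the 9 control rats. Within liver alone 1288 probes changed (68.3%), 547 up and 741 down, and within kidney alone 270 changed (14.3%), 50.4% of them up. Genes named below to fill out a count of 5 or fewer, outside the rule for named genes, were chosen after their values were seen.

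**Figure D1:**
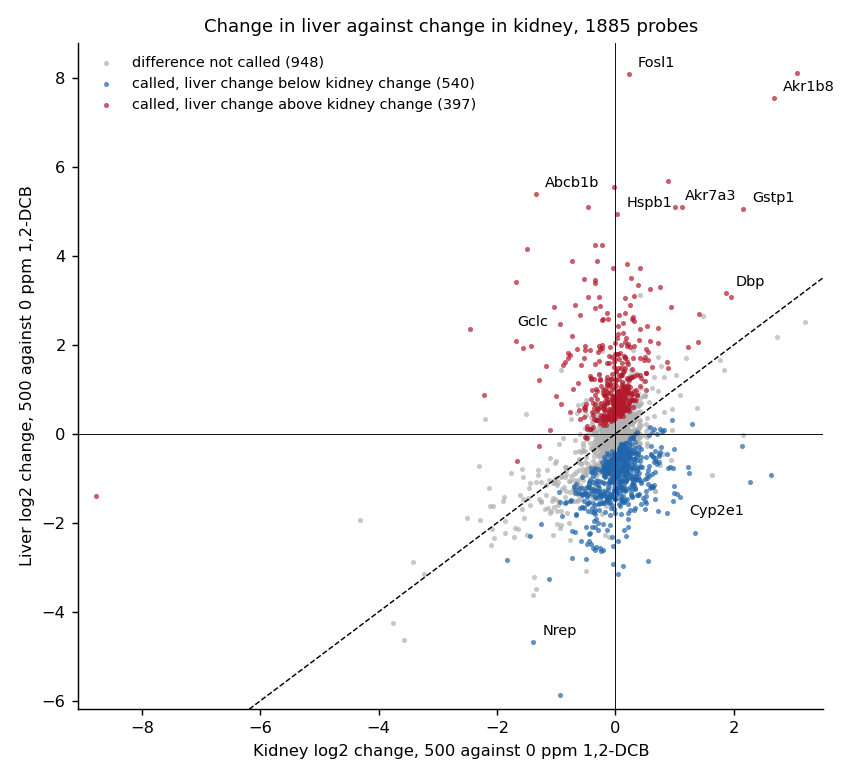
Each point is 1 of the 1885 tested probes, with its log2 change at 500 against 0 ppm in kidney on the x axis and in liver on the y axis; red and blue mark the 397 and 540 called differences, grey the rest, and the dashed line equal change. Most coloured points lie close to the vertical line of no kidney change, and labelled genes such as Abcb1b (liver 5.39, kidney -1.34) and Cyp2e1 (liver -1.41, kidney 1.10) lie on opposite sides of 0 in the 2 tissues.

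Sorted by which tissue moved, 745 of the called differences belonged to probes that changed in liver and were not called in kidney, 30 to probes called in kidney only, and 27 to probes called in neither. Both tissues were called for 224 probes. They made up 17.4% of the liver calls, beside 14.3% of all tested probes called in kidney. They made up 83% of the kidney calls, beside 68.3% of all tested probes called in liver. Of the 224 probes, 163 moved the same way in both tissues (59 up, the others down) and 61 moved in opposite ways. All 61 had a called difference, which opposite calls in both tissues make likely by definition. Of the 61, 49 fell in liver and rose in kidney, and 12 rose in liver and fell in kidney. This sorting by tissue was made with joint scaling only. Among the 163 with a common direction the difference was called for 74, and liver moved further in 73 of these. The exception was Mfap4, a microfibril protein, which fell by 0.60 in liver and by 1.66 in kidney on the log2 scale (difference 1.03 ± 0.31 SE, adjusted p = 0.0105).

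How many differences lay on either side depended on the scaling. Normalised with all libraries together, 42.4% of the called probes were higher and the median difference of all tested probes was -0.127. The share was 44.8% with DESeq2 size factors, 52.9% with the median difference set to 0, 58.2% with upper quartile normalization, 58.7% with TMM within each tissue and 86.8% with library totals only, where the median difference was 0.61. Called higher under each of these 6 scalings were 397 probes, that is, every probe called higher in the first of them. Called lower under all 6 were 7.59% of the tested probes, against 28.6% with joint scaling, and 396 probes were called lower under the 5 other than library totals. Within 1 tissue, the share of liver calls that were up was 42.5% with joint scaling, 52.7% in a fit of liver alone and 75.1% with library totals only, and of kidney calls 50.4%, 47.1% and 23.3%. Rises and falls of gene lists and cell markers within 1 tissue were counted with joint scaling only. Counts of differences for gene lists below are those of the joint scaling, followed by the members called under all 6. They are to be read beside the shares over all tested probes, 21.1% higher and 28.6% lower.

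**Figure D2:**
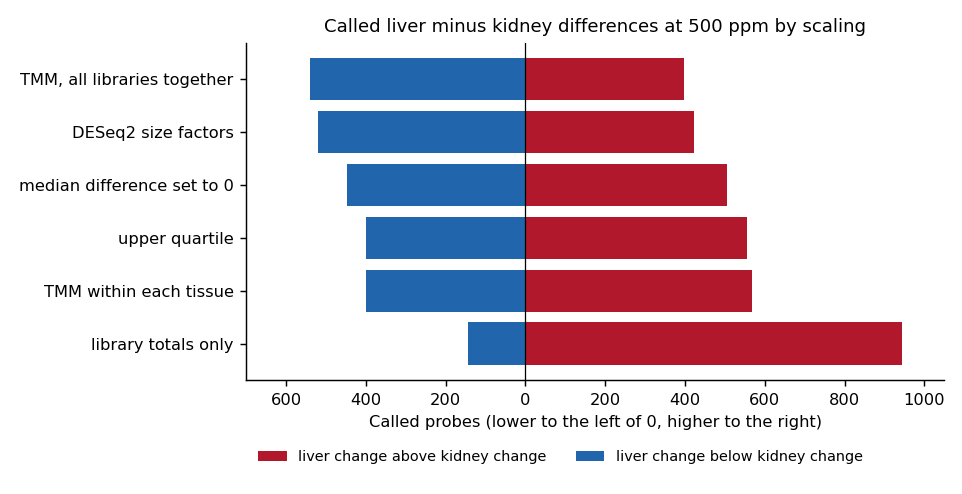
Bars give the number of probes with a called liver minus kidney difference at 500 ppm under 6 scalings, those lower in liver to the left of 0 and those higher to the right. The total runs from 937 to 1087, and the share of higher calls from 42.4% with joint TMM to 86.8% with library totals only.

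Transcripts that mark liver in untreated animals were often among the lower ones. Control rats of the other compound, 10 animals that do not enter the 1,2-DCB contrast, served to sort probes by tissue. Of 453 probes more than 2-fold higher in their livers than in their kidneys, 50.1% had a lower difference and 5.74% a higher one. Of the probes more than 2-fold higher in their kidneys, 31.9% had a higher and 17.1% a lower difference, and of the 1028 within 2-fold, 23.5% and 23.7%. With library totals only, the liver-enriched probes gave 74 higher and 89 lower differences, and the kidney-enriched ones 243 and 9. Over all probes the SD of the liver minus kidney log2 level was 2.81 in control rats and 2.6 in exposed rats. The gap between the tissues was smaller in exposed than in control rats for 520 of the 937 called probes and larger for 417. The same control rats enter both the gap and the difference, and all tested probes were not counted in this way. No narrowing between the tissues can be read from these counts alone. Which tissue holds more of a transcript depends on the scaling too. By library totals alone, an alternative added after seeing the data, the control rats of the other compound had 1579 probes above 2-fold in kidney and 169 within 2-fold, the rest being above 2-fold in liver. Of that rest 45.3% had a lower difference and 1.46% a higher one in the joint fit, and of the 1579 probes 24.3% had a lower and 24.3% a higher one. In the 1,2-DCB rats the gap was then smaller after exposure for 618 called probes and larger for 319, with the same limit.

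For some genes the tissue with the higher level switched, but which ones depended on the scaling. With joint scaling, in 12 called probes kidney was more than 2-fold above liver in control rats and liver more than 2-fold above kidney in exposed rats, among them Akr7a3 (mean log2 gap -3.06 in control and 1.09 in exposed rats), Hspb1 (-1.21 and 3.64) and Abcb1b (-4.05 and 2.65). The reverse held for 2 probes, Ehhadh (1.02 and -1.13) and Sult1c3, a sulfotransferase (3.38 and -1.31). By library totals 16 called probes switched from kidney to liver in this way and 0 from liver to kidney. Of the 14 that did so with joint scaling only Hspb1 (-4.10 and 1.46) and Nol3, an inhibitor of apoptosis (-2.79 and 1.88), were among them. Abcb1b then stood at -6.62 and 0.485. Akr7a3 stayed below kidney (-5.95 and -1.09), as did Ehhadh (-1.89 and -3.30).

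Most NRF2 targets rose in liver, and fewer rose in kidney. Of 27 tested probes 24 rose and 1 fell (Dak, -0.96) in liver, and 13 rose and 1 fell (Gclc) in kidney. The difference was higher for 20 and lower for 1, with a median of 1.24, and all 20 were called higher under all 6 scalings. Akr7a3, an aldehyde reductase that detoxifies quinones and dialdehydes, lay at 6.038 to 17.87 normalised CPM in control liver (median 10.92, n = 10) and at 302.5 to 435.3 in exposed liver (mean 383.4 ± 59.24 SD, n = 5). In kidney it lay at 70.93 to 112.1 in controls (median 100.9, n = 9) and at a mean of 184.5 ± 61.72 (SD, n = 5) after exposure, with 293.8 the highest. The liver minus kidney log2 level was -3.69 to -2.5 in control rats and 1.04, 1, 1.44, 0.563 and 1.42 in F601 to F605. On this scale liver lay below kidney in every control rat and above it in every exposed rat. By library totals it lay below kidney in all of them, at -6.56 to -5.46 in controls and -1.40 to -0.712 after exposure. The change was 5.10 in liver and 1.02 in kidney, and the difference 4.15 ± 0.20 (SE, edgeR adjusted p = 1.19e-10).

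Gstp1, a glutathione S-transferase scarce in normal hepatocytes, rose in both tissues. Its level was 5.602 to 10.67 in control liver (median 7.983) and 230.2, 273.7, 297.2, 342.5 and 173.4 in the exposed livers. In control kidney it was 46.77 to 75.77 (median 63.27), and in the exposed kidneys 218.6, 246.1, 232.5, 430.2 and 243. No exposed library of either tissue overlapped its controls (edgeR difference 2.96 ± 0.15, adjusted p = 3.23e-10). Akr1b8, an aldo-keto reductase, rose by 7.55 in liver, where 5 exposed animals lay at 66.65 to 93.85 against at most 1.022 in controls, and by 2.69 in kidney, where no library passed 1.896 (difference 5.37 ± 0.84, adjusted p = 0.000118). Gpx2, a glutathione peroxidase, rose by 5.11 in liver and 1.12 in kidney (4.02 ± 0.30, adjusted p = 3.92e-08).

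Gclc, the catalytic subunit of glutamate-cysteine ligase and the rate-limiting step of glutathione synthesis, went opposite ways in the tissues. In control liver it lay at 202.3 to 357 (median 274.8) and in the exposed livers at 950.5, 924.9, 1988, 1143 and 1657. In control kidney it lay far higher, at 5768 to 15520 (median 7638), and in the exposed kidneys at 6111, 5650, 5608, 4509 and 4271. The exposed livers were all above the controls, whereas 1 exposed kidney lay within the range of its controls. Gclc rose by 2.21 in liver and fell by 0.74 in kidney (difference 2.88 ± 0.31, adjusted p = 1.33e-06). Gclm, the modifier subunit, chosen after its value was seen, rose by 2.73 in liver and changed by -0.15 in kidney, where it was not called (difference 2.84). The 1 lower member was Gsta3, a glutathione S-transferase whose probe may not separate close paralogs, at -0.97, with changes of 0.24 in liver and 1.29 in kidney.

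**Figure D3:**
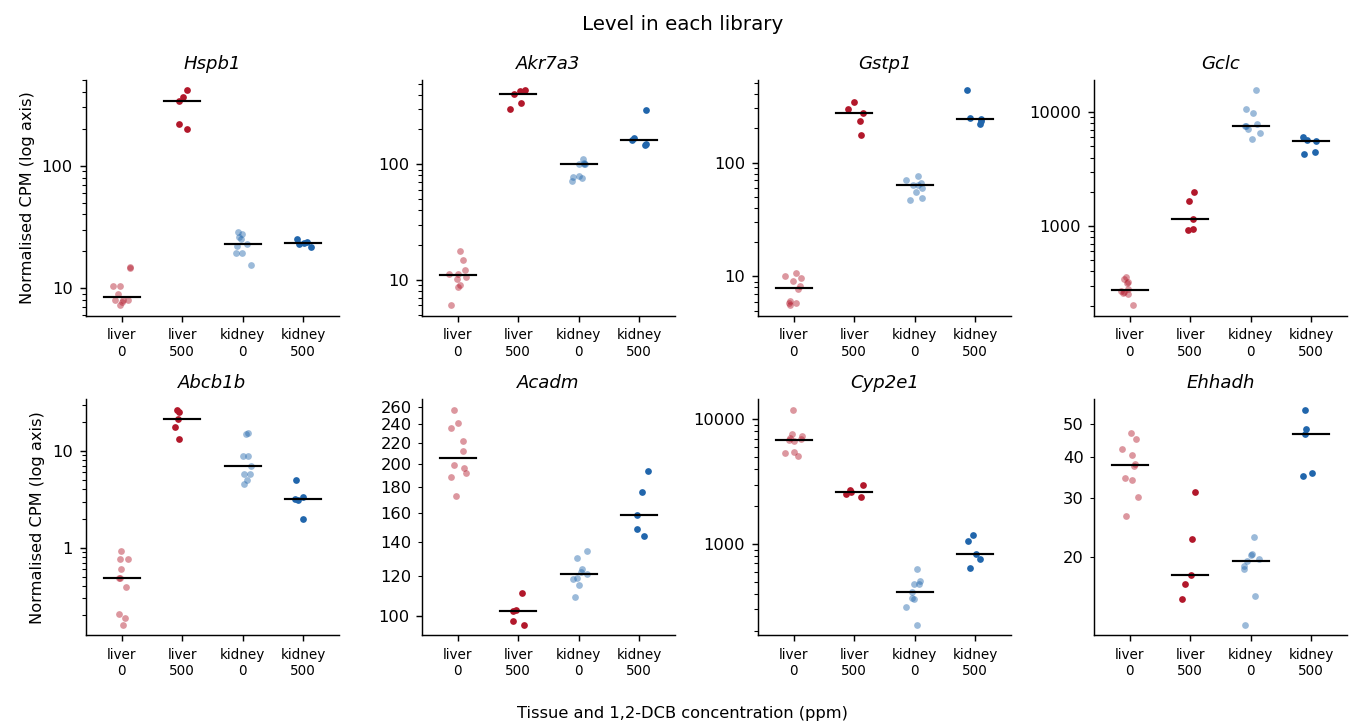
Normalised CPM on log axes for 8 genes, 1 panel each, in liver (red) and kidney (blue) at 0 ppm (pale) and 500 ppm (dark); each point is 1 library and the bar is the group median. Hspb1 is called in liver and not in kidney, Akr7a3 and Gstp1 rise in both tissues, Gclc and Abcb1b rise in liver and fall in kidney, and Acadm, Cyp2e1 and Ehhadh fall in liver and rise in kidney.

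CAR and PXR, nuclear receptors that sense foreign compounds, had more targets with a higher than with a lower difference. Of 15 probes 8 had a higher difference (8 under all 6 scalings) and 1 a lower one, with a median of 0.871. In liver 8 rose and 1 fell (Tsku), and in kidney 2 rose (Por and Aldh1a1) and 1 fell (Abcb1b). Called in either direction, these are shares near those of all tested probes (68.3% in liver and 14.3% in kidney). By direction, 547 of all 1885 tested probes rose and 741 fell in liver. Abcb1b, a P-glycoprotein that pumps drugs out of cells, lay at 0.1605 to 0.9289 in control liver (median 0.4846) and at 17.88, 26.53, 21.24, 13.37 and 25.55 in the exposed livers. In kidney it went the other way, from 4.577 to 15.29 in controls (median 6.992) to 3.193, 3.326, 3.13, 5.058 and 1.967. The liver groups lay far apart, and 1 exposed kidney lay within the control range. Its difference of 6.72 ± 0.47 (adjusted p = 3.11e-08) was the second largest among named genes. Abcc3, an exporter of glucuronides and bile acids, rose by 2.71 in liver and changed by 0.17 in kidney (2.57 ± 0.16, adjusted p = 3.77e-09). Por, the electron donor of cytochromes P450, rose in both tissues, by 1.33 and 0.42 (0.87 ± 0.17, adjusted p = 0.000531). The lower member was Tsku (-0.64), a secreted small leucine-rich protein.

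Cyp2b2, the classic CAR target, varied between animals. The exposed livers lay at 42.58, 89.94, 17.31, 9.015 and 38.91 against 1.898 to 17.84 in controls, so that the groups overlapped, and its kidney values were 2.566 at most. Cyp2b2 rose by 2.36 in liver, while its kidney change of -2.46 was not called (edgeR adjusted p = 0.0532). That kidney change rests on means of 1.06 in control and 0.194 normalised CPM in exposed kidney, and it enters the difference. The difference was 4.13 ± 1.03 (adjusted p = 0.00463). With limma voom and the rat as a random block it was 3.74 and no longer called (adjusted p = 0.0645). The sources used here do not say whether this probe separates Cyp2b2 from Cyp2b1.

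Of 19 cytochrome P450 probes 6 were lower (3 under all 6 scalings) and 4 higher (4), with a median of -0.739. These counts lie close to the shares over all tested probes (28.6% lower and 21.1% higher). In liver 4 rose and 7 fell, and in kidney 6 rose and 1 fell (Cyp1a2). Cyp2e1, which oxidises small solvents, lay at 5053 to 11900 in control liver (median 6845) and at 2508, 2635, 2974, 2700 and 2402 in the exposed livers. In kidney it lay at 225.9 to 629.1 in controls (median 415.2) and at 1065, 641.1, 827.5, 1192 and 759.6 after exposure. No exposed library of either tissue fell within the range of its controls, and the difference was -2.47 ± 0.23 (adjusted p = 3.24e-07). Cyp4a2, an omega-hydroxylase of fatty acids, fell by 0.68 in liver and rose by 0.70 in kidney (-1.38 ± 0.21, adjusted p = 3.59e-05). The 4 higher members, which are also the 4 that rose in liver, were Por, Cyp2b2, Cyp2b1 (4.90) and Cyp2j4 (0.65).

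Conjugating enzymes that were called in kidney all rose there, 13 of 25 probes, the rest being not called, whereas in liver 7 rose and 7 fell. The difference was higher for 5 (5 under all 6 scalings) and lower for 9 (7), with a median of -0.353 that turned to 0.377 with library totals only. Gstz1, which also degrades tyrosine, lay at 239.5 to 302.5 in control liver and 119.1 to 143.1 in exposed liver, and at 53.29 to 79.37 in control kidney and 76.27 to 101.7 in exposed kidney (-1.52 ± 0.10, adjusted p = 7.27e-09). Papss2, which makes the sulfate donor, fell by 1.22 in liver and rose by 0.34 in kidney (-1.54 ± 0.12, adjusted p = 5.9e-08). The 5 higher members were Gstp1, Gsta2 (0.68), Ephx1 (1.24), Ugt1a1 (1.10) and Ugdh (1.29). Of 15 ABC and organic solute transporters 4 were higher, Abcc3, Abcb1b, Abcc5 (1.08) and Abcc1 (0.87), and 3 lower, Abcb11, Slco2b1 (-2.02) and Slc22a7 (-0.82), around a median of 0.229. The counts of both lists lie not far from the shares over all tested probes (21.1% higher and 28.6% lower). Abcb11, the bile salt export pump, lay at 139.4 to 188.9 in control liver and 48.73 to 66.13 in exposed liver. In every kidney it lay under 1 normalised CPM. Its difference was -2.47 ± 0.60 (edgeR adjusted p = 0.0036), but the kidney part of it comes from very few counts. The liver minus kidney values of exposed and control rats overlapped.

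Heat shock genes rose in liver with little movement in kidney. Of 11 probes 9 rose and 1 fell (Fkbp4) in liver, and 1 rose in kidney (Hspd1). The difference was higher for 8, all called so under all 6 scalings, and not called for 3, with a median of 0.868. Hspb1, a small chaperone that binds unfolded proteins and actin, lay at 7.295 to 14.78 in control liver (median 8.542) and at 410, 361.8, 216.5, 199.8 and 339.1 in the exposed livers. The exposed kidneys, at 21.9, 23.9, 23.48, 23.14 and 25.22, all fell within the control kidneys' range of 15.57 to 28.6. The change was 4.95 in liver and 0.03 in kidney, and the difference 4.84 ± 0.23 (adjusted p = 1.19e-10). Cryab, a related small chaperone, differed by 3.19 ± 0.47 (adjusted p = 4e-05) although its liver level, at most 5.082, stayed below every kidney (12.32 or more). Hspa4, an exchange factor for HSP70, differed by 0.88 ± 0.13 (adjusted p = 4e-05).

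Zfand2a, a zinc finger protein induced by arsenite and heat, and Fosl1, a component of AP-1, shared an uneven rise. Zfand2a stood at 20.58, 116.6, 37.61, 47.58 and 315.2 in the exposed livers and at no more than 8.47 in controls (difference 3.89 ± 0.81, adjusted p = 0.00134). Fosl1 stood at 36.28, 145.6, 62.06, 60.95 and 327.1 in the exposed livers, at most 1.079 in control livers and at most 0.5389 in any kidney. Both were highest in F605 and next highest in F602. The Fosl1 difference of 7.42 ± 1.47 (adjusted p = 0.000994) was the largest of the named genes, but its kidney part comes from very few counts.

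Genes of the stress response of the endoplasmic reticulum went both ways. Of 19 probes 7 were higher, called so under all 6 scalings, and 7 lower, which lost the call or the sign with library totals only. The median of -0.227 turned to 0.506 there. Asns, asparagine synthetase and a target of ATF4, lay at 0.9868 to 2.346 in control liver (median 1.829) and at 10.94, 21.31, 32.14, 20.15 and 18.96 in the exposed livers. In kidney the exposed values, 7.069 to 18.92, overlapped the controls at 9.728 to 24. Its difference was 3.84 ± 0.28 (adjusted p = 3.11e-08), and that of Psat1, which makes phosphoserine, 2.35 ± 0.32 (adjusted p = 2.29e-05). Edem1, which sends misfolded glycoproteins to degradation, was lower at -1.18 ± 0.17 (adjusted p = 3.28e-05), but at -0.45 with library totals only it was not called (adjusted p = 0.0517). In the growth arrest and apoptosis list 7 of 13 probes were higher, called so under all 6 scalings, and 6 not called, with a median of 0.574. Mdm2, a ubiquitin ligase, lay at 22.56 to 32.24 in control liver and 74.29 to 126.5 in exposed liver, against 38.96 to 46.07 and 41.89 to 51.05 in kidney (1.52 ± 0.16, adjusted p = 8.03e-07). Bax, which opens mitochondria in apoptosis, rose by 0.87 in liver and changed by -0.17 in kidney (1.04 ± 0.10, adjusted p = 5.06e-07).

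Cell cycle genes rose in liver, and those called in kidney fell. Of 37 probes 32 rose in liver, and 4 fell in kidney (Kif22, Prc1, Ccnb2 and Mki67), the others being not called. The difference was higher for 26, called so under all 6 scalings, and not called for 11, with a median of 1.49, the highest of the 22 lists. Stmn1, which destabilises microtubules in dividing cells, lay at 12.58 to 23.26 in control liver (median 15.11) and at 73.91, 49.1, 65.82, 29.53 and 36.08 in the exposed livers. In kidney it lay at 137.7 to 177.4 in controls and 121.7 to 150.3 after exposure. Even the highest exposed liver therefore stayed below the lowest kidney (difference 1.88 ± 0.22, adjusted p = 3.48e-06). Smaller differences were found for Rrm1, a subunit of ribonucleotide reductase (0.62 ± 0.15, adjusted p = 0.00327), and Pcna, the sliding clamp of DNA polymerase (0.60 ± 0.15, adjusted p = 0.00373).

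Fatty acid oxidation genes and other PPAR targets that were called in kidney all rose there, 16 of 33 probes, while in liver 8 rose and 14 fell. The difference was lower for 17 (6 under all 6 scalings) and higher for 4 (4), with a median of -0.557 that turned to 0.175 with library totals only. Ehhadh, the bifunctional enzyme of peroxisomal oxidation, lay at 26.64 to 46.99 in control liver and at 31.39, 17.66, 22.61, 15.04 and 16.62 after exposure, F601 within the control range, and in kidney at 12.57 to 23.01 and then at 55.27, 35.07, 46.78, 48.38 and 35.73 (-2.15 ± 0.18, adjusted p = 1.25e-07). Acadm, a mitochondrial acyl-CoA dehydrogenase, fell by 1.05 in liver and rose by 0.44 in kidney (-1.47 ± 0.10, adjusted p = 1.05e-08).

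Acot1, a cytosolic acyl-CoA thioesterase on the same list, was opposite to these. It was at 0 to 0.2538 in control liver and 0.9768 to 3.479 in exposed liver, against 29.34 to 45.79 and 23.04 to 35.66 in kidney. The difference of 5.52 ± 0.64 (adjusted p = 4.7e-06) thus concerned a gene whose liver level stayed well below the kidney's. The other 3 higher members were Ech1 (0.75), Acot4 (0.54) and Acaa2 (0.63).

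Lipid synthesis genes fell in liver, and few were called in kidney. In the cholesterol list of 16 probes 14 fell in liver, and in kidney 1 rose (Tm7sf2) and 1 fell (Mvd). The difference was lower for 14 (7 under all 6 scalings) and higher for 1, Dhcr7 (0.75), with a median of -1.4. Cyp51, the lanosterol demethylase, lay at 185.4 to 364.8 in control liver (median 262.4) and at 83.49, 76.76, 37.19, 48.98 and 45.62 in the exposed livers, and at 12.68 to 16.96 in control and 9.358 to 15.04 in exposed kidney (-2.05 ± 0.25, adjusted p = 6.05e-06). Nsdhl and Tm7sf2, later steps of the pathway, differed by -1.64 ± 0.16 (adjusted p = 4.84e-07) and -1.99 ± 0.21 (adjusted p = 1.16e-06). Of 12 fatty acid synthesis probes 9 were lower (3 under all 6 scalings) and 1 higher, with a median of -1.45. Acss2, which activates acetate, fell in both tissues, by 2.10 and 0.49 (-1.62 ± 0.15, adjusted p = 3.08e-07). Elovl5, a fatty acid elongase, fell by 1.52 in liver (-1.28 ± 0.16, adjusted p = 4.75e-06). The higher member was Me1, the malic enzyme that supplies NADPH and that also stands on the NRF2 list, at 1.27 ± 0.18 (adjusted p = 1.84e-05). In the bile acid list of 9 probes Abcc3 was higher and 4 were lower (3 under all 6 scalings), around a median of -0.744: Abcb11, the bile acid receptor Nr1h4 (-1.16 ± 0.17, adjusted p = 3.56e-05), the side chain oxidase Acox2 (-1.23 ± 0.20, adjusted p = 7.05e-05) and the receptor of a bile acid feedback hormone, Fgfr4 (-0.74).

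Most enzymes of amino acid breakdown and the urea cycle fell in liver, and several rose in kidney. Of 25 probes 3 rose (Asns, Pycr1 and Arg1) and 18 fell in liver, and 7 rose and 2 fell (Pycr1 and Gatm) in kidney. The difference was lower for 17 (12 under all 6 scalings) and higher for 2, Asns and the proline enzyme Pycr1 (2.31), with a median of -0.919. Bhmt, which remethylates homocysteine with betaine, lay at 424.2 to 784.7 in control liver and at 398.6, 262.3, 150.1, 304.2 and 91.99 after exposure, and in kidney at 3.104 to 7.668 and then at 12.44, 7.066, 7.659, 8.717 and 10.93 (-2.52 ± 0.30, adjusted p = 5.18e-06). Gamt, the last step of creatine synthesis, fell by 1.10 in liver and rose by 0.44 in kidney (-1.53 ± 0.12, adjusted p = 7.48e-08). Kmo, which hydroxylates kynurenine, fell by 1.14 and rose by 0.65 (-1.82 ± 0.15, adjusted p = 1.12e-07).

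In glucose metabolism 5 of 19 probes were higher (5 under all 6 scalings) and 6 lower (4), with a median of -0.447 that turned to 0.284 with library totals only. These counts lie near the shares over all tested probes (21.1% higher and 28.6% lower). In kidney 2 rose, Slc2a2 (0.74) and Pck1 (2.28). Aldoa, the aldolase of muscle and dividing cells, differed by 1.46 ± 0.12 (adjusted p = 1.03e-07) and counts with 2 probes. Other higher members were Slc2a1 (2.44) and Pck2 (0.96). Pklr, the pyruvate kinase of liver, was lower at -2.51 ± 0.32 (adjusted p = 6.75e-06), and Fbp1, a gluconeogenic phosphatase, at -1.16 ± 0.13 (adjusted p = 1.74e-06).

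Most genes of plasma proteins fell in liver. Of 42 acute phase, complement and coagulation probes 36 fell in liver, the others being not called, and 3 rose (Lcn2, A2m and Serpinc1) and 10 fell in kidney. The difference was lower for 18 (9 under all 6 scalings) and not called for 24, with a median of -0.914. Some members were near the floor in kidney, which leaves their kidney change and their difference imprecise. In control kidney Fgb had a median of 0.245 and Hpx of 0.3016 normalised CPM, against 186.1 and 1490 in control liver. Neither difference was called (-0.557 and -1.43). C1s, a protease that starts the classical complement pathway, lay at 61.89 to 96.14 in control liver and at 16.79, 9.524, 13.46, 11.78 and 11.64 after exposure, against 6.799 to 17.24 and 5.753 to 9.196 in kidney (-2.32 ± 0.25, adjusted p = 1.32e-06). Serpinc1, antithrombin, fell by 1.40 in liver and rose by 0.53 in kidney (-1.93 ± 0.22, adjusted p = 2.09e-06), and C8g, a chain of the membrane attack complex, fell by 1.71 in liver (-1.97 ± 0.15, adjusted p = 5.66e-08). Fga, a fibrinogen chain whose counts come in multiples of 10, differed by -1.76 ± 0.27 with edgeR (adjusted p = 4.29e-05) and was not called with DESeq2 (-1.73, adjusted p = 0.261). Apoh, likewise in multiples of 10 and scarce in kidney (37.82 at most), differed by -2.52 ± 0.79 (adjusted p = 0.0167) and was not called with DESeq2 (adjusted p = 0.0841) or with library totals only (-1.76, adjusted p = 0.0732). Of the 15 tested hepatocyte markers 8 fell and 1 rose in liver. The one that rose was Apoa1, the main protein of HDL. The hepatocyte markers' part in these lists was not tested.

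With joint scaling, most immune and matrix genes fell in liver, and some fell in kidney. Of 24 interferon response probes 18 fell and 1 rose (Isg20) in liver, and 7 fell in kidney. The difference was lower for 7, not called or of the other sign with library totals only, and higher for 2, Isg20 (2.13) and Oasl (1.73). The median of -0.544 turned to 0.186 with library totals only. Over all tested probes 28.6% were lower and 21.1% higher, so the share of lower calls here lay near that of all. Psmb8, a subunit of the immunoproteasome, differed by -0.77 ± 0.23 (adjusted p = 0.00967), Gbp2, an interferon-induced GTPase, by -0.99 ± 0.27 (adjusted p = 0.0059), and the kinase Eif2ak2 by -0.58 ± 0.13 (adjusted p = 0.00128). Without the replicate block Psmb8 and Gbp2 were not called (adjusted p = 0.165 and 0.172), nor with it as a random block in limma voom (0.197 and 0.143). Psmb8 also lost the call with upper quartile normalization (-0.56, adjusted p = 0.0560), TMM within each tissue (-0.56, adjusted p = 0.0528) and library totals only (-0.04, adjusted p = 0.909). With library totals only Gbp2 stood at -0.25 (adjusted p = 0.426) and Eif2ak2 turned to 0.16 (adjusted p = 0.374). Of 27 matrix probes 18 fell and 1 rose in liver, and 5 fell in kidney. The difference was lower for 9, not called or of the other sign with library totals only, and higher for 1, Lamc1 (0.42). The median of -0.423 turned to 0.312 there. The share of lower calls again lay near that of all tested probes. Fn1, fibronectin, differed by -1.30 ± 0.34 (adjusted p = 0.00547), the proteoglycan Bgn by -0.77 ± 0.19 (adjusted p = 0.0034) and Col6a1 by -0.63 ± 0.13 (adjusted p = 0.000734). With library totals only these were -0.57, -0.04 and 0.10 and not called, and Col6a1 was not called with a filter at a mean of 20 CPM in each tissue (-0.23, adjusted p = 0.117). Beside these lists, 8 of 8 macrophage and Kupffer cell markers fell in liver and 4 in kidney. Their summed level ran from 240 to 354.2 normalised CPM in control liver and had a median of 136.4 in exposed liver, where 115.5 was the lowest. In kidney it ran from 317.9 to 439.6 in controls and from 183.5 to 329.7 after exposure. Lymphocyte markers fell in 4 of 4 probes in liver and in 3 in kidney, with summed levels of 12.84 to 18.9 and 5.436 to 8.877 in liver and 6.642 to 8.765 and 3.861 to 4.496 in kidney. Markers of other cells fell in liver as well, in 3 of 4 endothelial, 3 of 3 red cell and 2 of 3 neutrophil probes. Among stellate cell, fibroblast and pericyte markers 2 of 4 fell there, among cholangiocyte markers 1 of 2, and among adipocyte markers 0 of 2. The part of any of these cells in the immune and matrix lists was not tested.

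**Figure D4:**
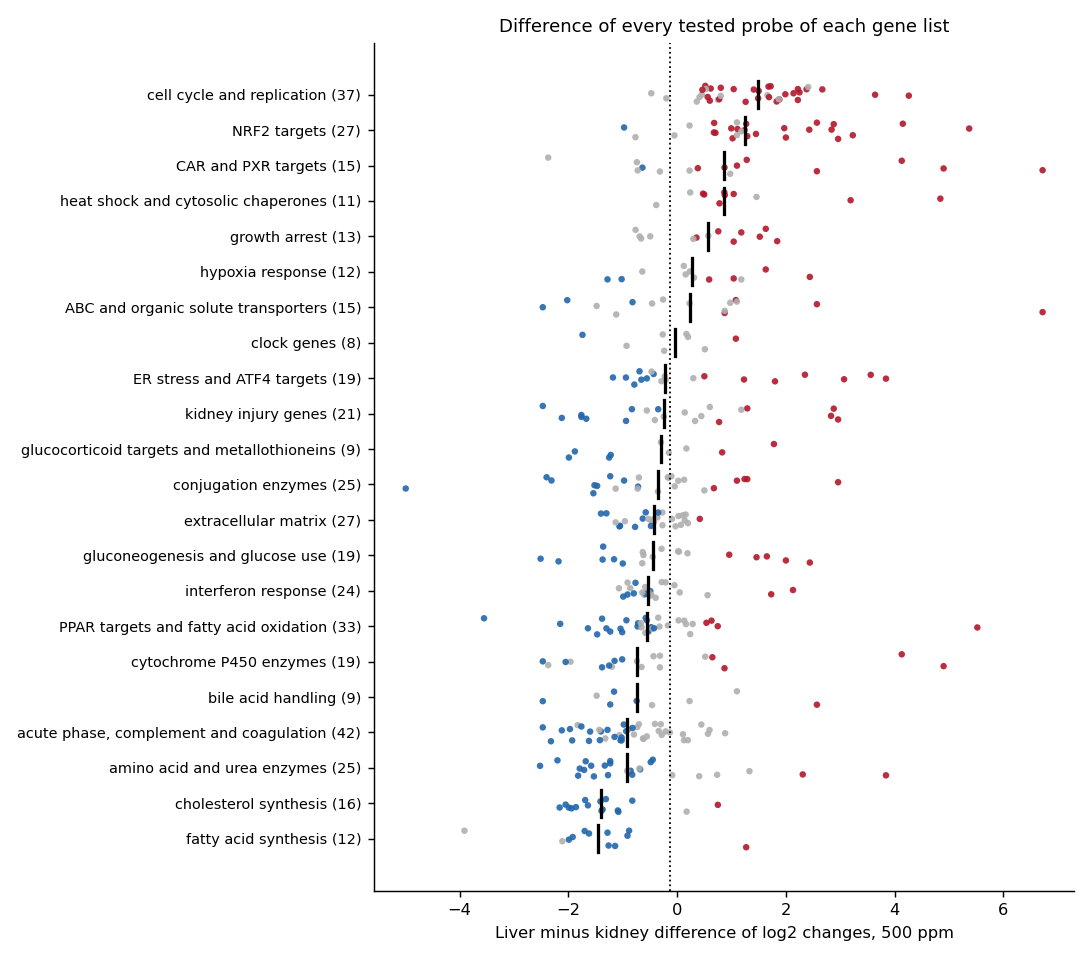
Every point is 1 tested probe of a gene list (number of probes in brackets), at its liver minus kidney difference of log2 changes at 500 ppm; red and blue are called, grey not, the black bar is the list's median and the dotted line the median of all 1885 probes, -0.127. Medians run from -1.45 for fatty acid synthesis to 1.49 for cell cycle genes.

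By the rule for named genes, 5 genes that were called in both tissues with no called difference and the smallest difference are given. Cd74, the invariant chain of MHC class II, lay at 62.8 to 115.1 in control liver and at 39.69, 31.7, 49.15, 52.83 and 42.67 after exposure. In kidney it lay at 263.1 to 369 and then at 169.4, 151.4, 114.2, 110.4 and 149.2. It fell by 1.16 in liver and by 1.17 in kidney, and the 95% interval of the difference ran from -0.35 to 0.43. Nfe2l2, the gene of NRF2 itself, rose by 0.34 and 0.33 (interval -0.34 to 0.24). The intervals were -0.30 to 0.24 for the importin Kpnb1, -0.29 to 0.19 for the ribonucleotide reductase subunit Rrm2b and -0.28 to 0.16 for Htatsf1, an RNA-binding protein. Such intervals leave room for differences of that size. With library totals only, which shift the median difference to 0.61, all 5 were called higher, at 0.67 to 0.77. With a filter at a mean of 20 CPM in each tissue 4 of them were called higher too: Cd74 (0.45, adjusted p = 0.0463), Kpnb1 (0.37, adjusted p = 0.0189), Nfe2l2 (0.36, adjusted p = 0.0350) and Htatsf1 (0.35, adjusted p = 0.00261).

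Below 500 ppm the tissues differed at 250 ppm and hardly at lower concentrations. These contrasts come from 1 fit over all 7 concentrations and share the control rats, so values at different concentrations are not independent. The difference was called for 327 of 1986 probes at 250 ppm (16.5%), and for 1 at 100 ppm (0.0504%), 0 at 30 ppm (0%), 1 at 10 ppm (0.0504%) and 0 at 1 ppm (0%). Of the calls at 250 ppm 41% were higher, against 51.3% with DESeq2 and 61.3% in a fit of that concentration and the controls alone. At 30 and 1 ppm, edgeR gave 245 and 82 probes with an unadjusted p below 0.05, and DESeq2 called 14 and 0. The single probe at 10 and at 100 ppm was Abcc3. Its difference was 0.66 ± 0.22 at 1 ppm, 1.17 ± 0.22 at 10 (adjusted p = 0.00758), 0.77 ± 0.22 at 30, 1.38 ± 0.21 at 100 (adjusted p = 0.000343), 2.42 ± 0.21 at 250 (adjusted p = 1.03e-10) and 2.57 ± 0.21 at 500 ppm. In the fit of 10 ppm and controls alone, no probe was called at 10 ppm.

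Named genes fell into those with a called difference at 250 ppm and those without. Gstp1 differed by 3.18 ± 0.26 at 250 ppm (adjusted p = 4e-11) and Stmn1 by 1.99 ± 0.28 (adjusted p = 3.87e-06), beside 2.96 and 1.88 at 500 ppm, and Akr7a3 by 3.42 ± 0.27 (adjusted p = 1.65e-11). Hspb1 was called at 250 ppm with a smaller value, 0.97 ± 0.32 (adjusted p = 0.0305), as was Cyp2e1, at -0.89 ± 0.20 (adjusted p = 0.00168). By contrast Ehhadh stood at -0.20 ± 0.19 (adjusted p = 0.529), Asns at 0.75 ± 0.29 (adjusted p = 0.0666) and Cyp51 at 0.45 ± 0.21 (adjusted p = 0.143) beside -2.15, 3.84 and -2.05 at 500 ppm.

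**Figure D5:**
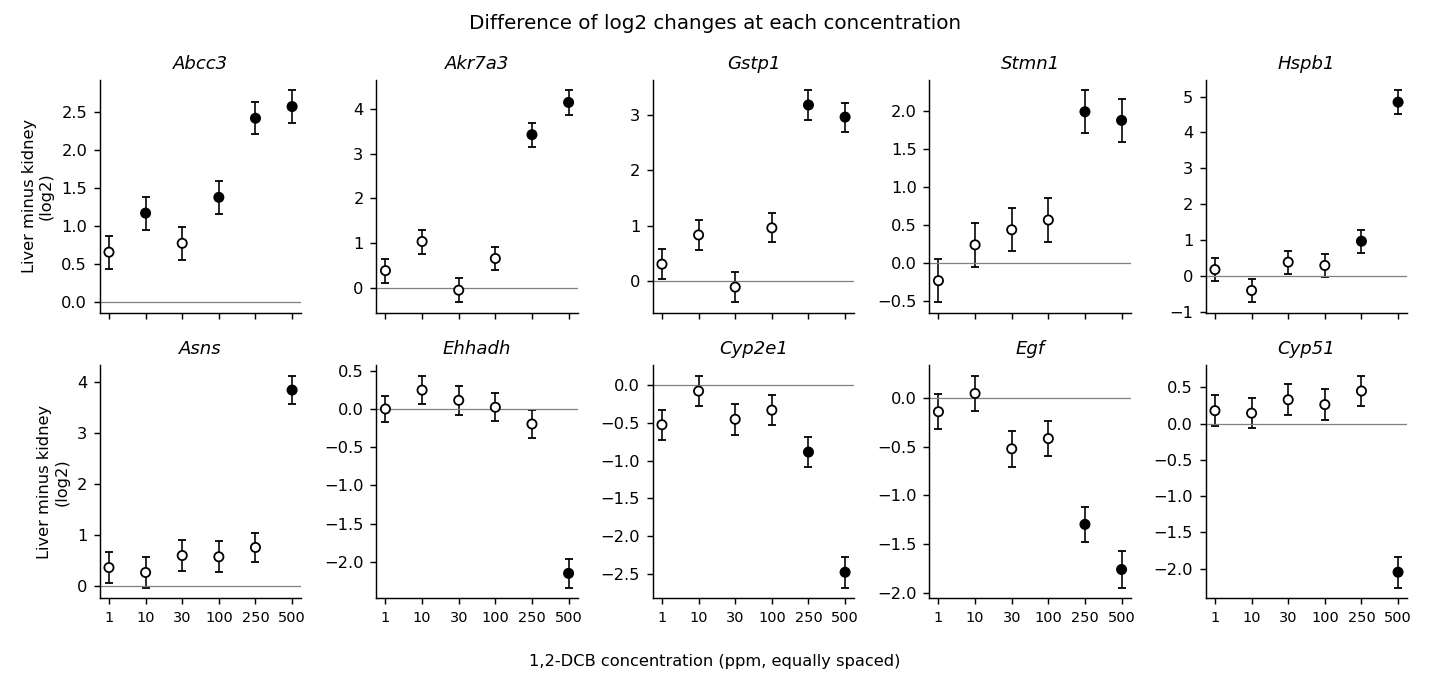
Liver minus kidney difference of log2 changes (y axis) at 1, 10, 30, 100, 250 and 500 ppm (x axis, equally spaced) for 10 genes; bars are ± 1 SE of the fit, filled points are called and open points are not. Abcc3 is called at 10, 100, 250 and 500 ppm, Akr7a3, Gstp1, Stmn1, Hspb1, Cyp2e1 and Egf from 250 ppm, and Asns, Ehhadh and Cyp51 at 500 ppm only.

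The same contrast was available for the isomer 1,4-dichlorobenzene, whose chlorines lie opposite each other, in other rats and at a top concentration of 800 ppm. As the concentrations differ, the values are set side by side without a comparison. There the difference was called for 249 of 1874 probes (13.3%), 59.4% of them higher. Among 1835 probes tested for both, 917 were called for 1,2-DCB and 240 for 1,4-DCB, and 185 for both. The 185 made up 20.2% of the 1,2-DCB calls, beside 13.3% of all tested probes called for 1,4-DCB. They made up 77.1% of the 1,4-DCB calls, beside 49.7% of all tested probes called for 1,2-DCB. Of these 185 probes 167 had the same sign and 18 the opposite. Abcc3 differed by 2.71 ± 0.19 (adjusted p = 2.13e-08) and Gstp1 by 2.64 ± 0.34 (adjusted p = 5.4e-05). Hspb1 stood at 0.64 ± 0.16 (adjusted p = 0.0105), Asns at 0.29 ± 0.33 (adjusted p = 0.648) and Cyp51 at -0.24 ± 0.17 (adjusted p = 0.407). Cyp2b2 stood at 7.76 ± 0.93 (adjusted p = 5.4e-05), and Dbp, a clock output gene, at -1.79 ± 0.28 (adjusted p = 0.000247), against 1.08 ± 0.23 for 1,2-DCB.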

How the data were processed

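The assay, TempO-Seq with a rat S1500+ probe panel, sequences ligated pairs of detector oligonucleotides and gives 1 count per probe. Tissue was kept in RNAlater and its RNA was taken with QIAzol, per the labels' protocols. The deposited values are attenuation-adjusted raw read counts; the submitters' processing notes name Bowtie 1.3.1, while its settings and the probe reference are not stated there. Attenuation dilutes oligonucleotides of abundant transcripts, and 104 of 2654 probes held only multiples of a step of 3 to 10 (99 of the tested probes), which enlarges their counting noise. The labels mention no molecular identifiers, so amplified copies may be counted more than once. No 2 libraries were identical (highest correlation 0.983).

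Groups came from the labelled compound, tissue and concentration, and the rat from the number in the title. The tests used edgeR 4.0.16 under R 4.3.3 (filterByExpr within each tissue, passed by 1945 probes in liver and 2245 in kidney, joint TMM, robust quasi-likelihood F test, 12 residual degrees of freedom, Benjamini-Hochberg adjustment over all tested probes, threshold 0.05). The paired libraries come from the same animals, so the rat was a replicate block. Deviations of a rat's liver and kidney from their group means correlated at 0.0597 to 0.211 (median 0.131), over 0.1 in 8 of 14 rats. Without the replicate block 949 differences were called. The rat cannot be a block for a change within 1 tissue, so those fits had 4 groups. Errors are SE of the fit.

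Named genes were taken from called probes whose mean reached 20 normalised CPM in some group: the 10 largest higher and 10 largest lower differences, up to 5 of smallest p called in opposite directions each way, up to 3 of smallest p of each of 22 lists, and the 5 alike genes described in the report (77 in all). Members and lists were chosen with earlier results of these data known. Alternatives used DESeq2 1.42.0, limma 3.58.1, other scalings, filters and sample sets. Scripts were tested on simulated data. Gene symbols were read from the probe identifiers. Which member of families such as Cyp2b, Cyp4a or Gsta a probe reads is uncertain. The labels give no batch. Results on some single genes are not reported here.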

Additional observations from a re-analysis of the deposited data

Results flagged for a closer look

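The counts of called differences between tissues, each from a test of the difference itself, were 937 at 500 ppm, 327 at 250 ppm, 1 at 100 ppm and 1 at 10 ppm of 1,2-DCB, and 249 at 800 ppm of 1,4-DCB. Of the 77 named genes 72 had a called difference at 500 ppm. Named for opposite calls in the 2 tissues were Abcb1b (6.72), Gclc (2.88) and Cxcl16, a chemokine (0.89), which rose in liver and fell in kidney, and Gstz1 (-1.52), Acadm (-1.47), Papss2 (-1.54) and Gamt (-1.53), which fell in liver and rose in kidney.

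Control and exposed rats were examined for each of the 77 named genes, and in 7 of these groups 1 animal lay apart from the others in its liver minus kidney log2 level; chance alone sets about 1 in 20 groups apart. Among exposed rats, Asns was 1.42 in F605 against 0.543 to 0.763 in the others, Paqr9, a receptor-like membrane protein, -1.42 in F604 against -0.637 to -0.39, Tm7sf2 1.73 in F603 against 2.44 to 2.55, Eif2ak2 0.189 in F604 against 0.497 to 0.623, and the glucocorticoid receptor Nr3c1 -0.267 in F601 against -0.894 to -0.748. Among control rats, Serpinc1 was 6.33 in F4 against 5.17 to 5.64, and Ndrg1 -9.19 in F7 against -8.51 to -8.05.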

How the results depend on the processing

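At 500 ppm the count of 937 ran from 941 to 1087 under the other tools, scalings and sample sets tried, and from 858 to 971 without any 1 rat. Only the filter at a mean of 20 CPM in each tissue moved it further, to 285 of 400 tested probes, with fewer probes tested. Of these 285 calls 58.2% were higher, against 42.4% in the main fit. The median difference was then 0.0749, against -0.127. Without the replicate block the count was 949, with a random replicate block in limma voom 941, and with limma on each rat's own difference 963. Counts divided by the attenuation step gave 950, of which 56.3% were higher. Library totals, the centred median and the per-rat limma fit were chosen after seeing the data. At 250 ppm 29.8% of tested probes were called with the 20 CPM filter in place of 16.5%, and 11.2% to 14.7% without any 1 exposed rat. Lower concentrations rest on few calls: at 100 ppm the count was 3 with no replicate block, 2 with that concentration alone, 0 with the 20 CPM filter, 5 with DESeq2 and 1 to 2 without any 1 exposed rat; at 10 ppm it was 5, 0, 0, 7 and 0 to 3; at 30 ppm, the 20 CPM filter gave 1, DESeq2 14 and leaving out 1 rat 0 to 1. Leaving out 1 exposed rat gave 1224 to 1283 calls in liver, 208 to 270 in kidney and 168 to 218 for 1,4-DCB.

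Of 2267 values of named genes under alternatives, 2231 kept their direction and call, 25 lost and 2 gained the call (Cd74, 0.449 with the 20 CPM filter and 0.772 with library totals only), and 9 changed sign. The latter were Eif2ak2 (0.157) and Col6a1 (0.0997) with library totals only, and, from values near 0, Kpnb1 (0.374 with the 20 CPM filter, 0.7 with library totals only), Nfe2l2 (0.358 and 0.684), Htatsf1 (0.348 and 0.673) and Rrm2b (0.682 with library totals only). The causes were not tested. Transcripts near 1 normalised CPM in a tissue, such as Abcb11 in kidney, leave that tissue's change imprecise.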

Other observations

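Kidney injury genes, clock genes, glucocorticoid targets and hypoxia genes are described here. Of 21 kidney injury genes, markers of damaged tubules, 3 rose and 2 fell (Fgg and Plau) in kidney, while 7 rose and 11 fell in liver, with 5 higher and 8 lower differences (5 and 5 under all 6 scalings) and a median of -0.245 that turned to 0.49 with library totals only. Over all tested probes 21.1% were higher and 28.6% lower. The 5 higher kidney injury genes were Anxa2 (2.88), Plaur (2.83), Gstp1, Cd44 (1.29) and Krt8 (0.77). The 3 of this list that rose in kidney, named after their values were seen, were Gstp1, Lcn2 and Krt8. Egf, which healthy distal tubules make, lay at 346.6 to 490.9 normalised CPM in control kidney and 248.3 to 516.1 in exposed kidney. In liver it lay at 9.453 to 18.3 and then at 2.009 to 3.548 (difference -1.76 ± 0.18, edgeR adjusted p = 5.93e-07).

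Of 8 clock genes 1 was higher (Dbp) and 1 lower (Bhlhe40). The median of -0.0337 was 0.701 with library totals only. Arntl, a core activator, and Npas2, its partner, fell in both tissues, by 1.62 and 3.15 in liver and by 2.11 and 3.24 in kidney; both were chosen after their values were seen. Dbp rose in both tissues, from 7.283 to 17.14 in control liver to 156.9, 82.59, 96.39, 84.9 and 33.74, and from 41.53 to 151.1 in control kidney to 301.2, 212.6, 349.2, 229.5 and 200.1. Exposed and control libraries did not overlap in either tissue, and the difference was 1.08 ± 0.23 (adjusted p = 0.00102). Bhlhe40, a repressor of clock genes, fell by 1.36 in liver (-1.74 ± 0.20, adjusted p = 2.93e-06). The sources used here do not give the hours of collection.

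Of 9 glucocorticoid targets and metallothioneins 2 were higher and 4 lower (2 and 2 under all 6 scalings), around a median of -0.298 that turned to 0.434 with library totals only. The receptor Nr3c1 fell by 1.21 in liver (-1.25 ± 0.15, adjusted p = 3.57e-06), as did Cebpd, a transcription factor, by 1.02 (-1.22 ± 0.15, adjusted p = 3.72e-06), whereas Fkbp5, a co-chaperone of the receptor, rose by 0.97 (0.83 ± 0.15, adjusted p = 0.000184). The others, named after their values were seen, were Mt1a (1.78), Lpin1 (-1.99) and Hsd11b2 (-1.88). Of 12 hypoxia genes 4 were higher and 2 lower (4 and 1 under all 6 scalings), around a median of 0.272. Ndrg1, whose counts come in multiples of 10, was higher at 1.63 ± 0.31 with edgeR (adjusted p = 0.000363) and was not called with DESeq2 (1.66, adjusted p = 0.249). Also higher, named after their values were seen, were Slc2a1 (2.44), Bnip3 (0.59) and Ddit4 (1.04). Pdk1, which closes the entry to the citrate cycle, was lower at -1.28 ± 0.13 (adjusted p = 1.01e-06). Vegfa, an angiogenic factor, fell by 0.76 in liver and rose by 0.28 in kidney (-1.02 ± 0.12, adjusted p = 3.48e-06), but at -0.29 with library totals only it was not called (adjusted p = 0.144).

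Among the largest lower differences outside the lists were Inhba, an activin subunit, which lay at 42.57 to 68.69 in control and 5.358 to 8.251 in exposed liver and under 2 normalised CPM in kidney (-3.35 ± 0.50, adjusted p = 6.97e-05), and Srd5a1, a steroid reductase, at 149.6 to 211.6 and then 24.49 to 52.1 in liver and likewise under 2 in kidney (-2.50 ± 0.21, adjusted p = 1.09e-07). Nrep fell in both tissues, from 16.07 to 53.37 in control liver to 0.4465 to 1.479, and from 14.35 to 31.15 in control kidney to 5.417 to 11.5 (-3.34 ± 0.34, adjusted p = 7.92e-07). Paqr9 fell by 2.93 in liver and changed by -0.04 in kidney (-2.89 ± 0.21, adjusted p = 3.92e-08).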
